A study of Mus musculus with 48 samples.

Results

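Cultures of mouse sensory neurons that had received GFP mRNA were compared with cultures that had received a control siRNA pool, siCONTROL. The 8 libraries, 4 of each kind, were taken by their labels out of 48 in the series, and all 34183 genes of the deposited tables were joined by gene ID. Of these, 13226 genes had enough counts to be tested. Gap43, a membrane protein of the growth cone, was the single gene that passed the test, and it was 2.28-fold higher with GFP mRNA. At 7225 of the 7294 genes with a mean of at least 20 CPM (counts scaled to a common library size), the 95% interval of the difference lay within 2-fold, which is 99.1% of them.

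The series knocked down or overexpressed injury-responsive transcription factors in cultures enriched for neurons, prepared from adult mice of genotype wildtype; the cells came from dorsal root ganglia, where the somata of body sensory nerves lie. In the GFP mRNA group, cells were transfected right after isolation with custom mRNA from GenScript for green fluorescent protein, a jellyfish protein used as a marker. In the siCONTROL group, the same kind of cells received a control pool from the ON-TARGETplus line of siRNAs. Both groups were transfected with the lipid reagent that the labels spell Dharnafect 2, were kept in Neurobasal-A with B27 and were harvested after 42 h. RNA of both was prepared with the same kits, by the labels. Age in weeks and sex are not given in the labels. Whether the 4 replicates of a group stem from different animals or dishes is not in the labels, so a p-value here reflects only how these samples vary. Sex-linked counts, given below, differed between replicates within each group, so the replicates did not all share 1 source. Among replicates alike in these counts, the spread may be technical. The GFP mRNA libraries stand in 1 deposited table and the siCONTROL libraries in another. Transfection type and any batch that goes with the table therefore cannot be told apart in any difference given here. The tables list mouse genes, so the level of the GFP message itself was not analysed here.

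RNA brought into a cell can be read by sensors of foreign RNA. The endosomal receptor TLR3 and the cytosolic helicases RIG-I (gene Ddx58) and MDA5 (Ifih1) signal through adaptors to type I interferon and the genes it induces. The RNA-activated kinase PKR (Eif2ak2) phosphorylates the initiation factor eIF2, which lowers general translation and raises translation of ATF4, the central factor of the integrated stress response. A control siRNA is loaded into Argonaute, while an introduced mRNA is translated on ribosomes. Dissociation cuts the axons of these neurons, and genes of axon regeneration, Gap43 among them, are induced by such injury.

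Total counts were 4339416 to 5959173 in the GFP mRNA libraries and 3437120 to 6621566 in the siCONTROL libraries, and siCONTROL replicate 1 was the shallowest. None of 5 library measures separated the groups by an exact permutation test over the 8 libraries (two-sided, smallest possible p = 0.0286). Mitochondrially encoded genes held 4.14 ± 1.33% of counts with GFP mRNA and 3.10 ± 0.60% with siCONTROL (SD, n = 4 each, exact permutation p = 0.229, adjusted over the 5 measures 0.571). Cytosolic ribosomal protein genes held 6.14 ± 0.281% and 6.19 ± 0.189% in the same order (exact permutation p = 0.8, adjusted 1.0). In each group, replicates 1 and 2 held counts of Y-linked genes and none of Xist, and replicates 3 and 4 held Xist and no Y-linked counts, so both kinds were balanced between the groups. Neuronal transcripts were abundant: the ubiquitin hydrolase Uchl1 lay at 4846 to 5783 CPM with GFP mRNA and 4676 to 5581 CPM with siCONTROL. Of 14 macrophage markers 3, Ptprc, C1qc and Trem2, had 0 counts in all 8 libraries, and the list summed to 44.6 to 79.5 CPM with GFP mRNA and 33.8 to 50.3 CPM with siCONTROL.

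By edgeR's quasi-likelihood test with Benjamini-Hochberg adjustment over all genes, 1 gene was higher with GFP mRNA and 0 were lower at an adjusted p under 0.05, so the percentage of genes called was 0.00756. At an unadjusted p under 0.05 there were 615 higher genes (4.65%) and 672 lower genes (5.08%), together 9.73% of those tested. DESeq2 called 44 higher (0.333%) and 35 lower (0.265%), together 0.597%, and limma-voom called 4 higher and 0 lower (0.0302%). A fit of all 44 libraries of 42 h, which takes the spread from all 11 groups, called 39 higher (0.255%) and 22 lower (0.144%) of 15318 genes, together 0.398%. The number of calls thus depended on the test. Against the mean of all 8 siRNA groups in that fit, which is another contrast, GFP mRNA had 406 higher (2.65%) and 201 lower genes (1.31%), together 3.96%. The 4 GFP mRNA libraries lay wholly above or wholly below the 4 siCONTROL libraries at 789 genes, 5.97% of those tested, with 388 above (2.93%) and 401 below (3.03%). Of all estimates, 49.1% were positive.

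The estimates had a median size of 0.13 on the log2 scale and a median standard error (SE) of 0.155. The 95% interval lay within 2-fold in both directions for 11236 genes (85%) and within 1.5-fold for 7937 genes (60%). Estimates of 2-fold or more were found at 133 genes, 55 higher and 78 lower, and 1 of them, Gap43, passed. A gene that did not pass is not thereby shown to be alike in the 2 groups; the interval gives what difference remains possible.

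**Figure D1:**
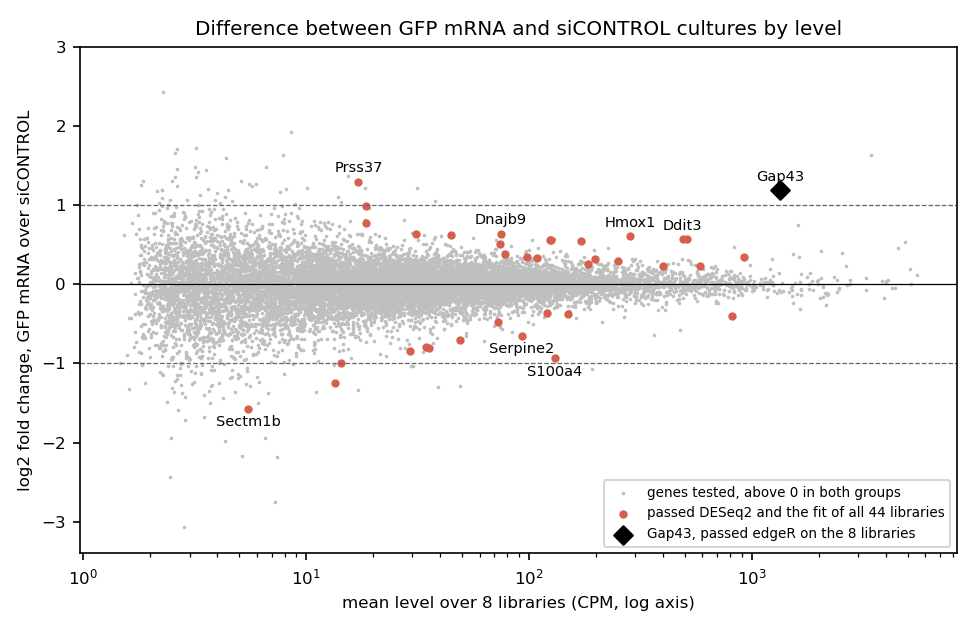
Each point is a gene, with its mean CPM over the 8 libraries on a log axis and its log2 fold change, GFP mRNA over siCONTROL, on the vertical axis; dashed lines mark 2-fold. Gap43 (black) is the single gene that passed the edgeR test on the 8 libraries. The more abundant mt-Atp8 had a larger estimate, 1.63, and did not pass. The 36 genes that passed both DESeq2 and the fit of 44 libraries (red, Gap43 included) mostly lie within 2-fold.

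Gap43 encodes growth-associated protein 43, which is anchored to the inner membrane face of growth cones and is a classical marker of regenerating axons. It lay at 1965, 2197, 1902 and 1358 CPM in the GFP mRNA libraries, against 868, 829, 797 and 768 CPM in the siCONTROL libraries. Every GFP mRNA library was above every siCONTROL library. The means were 1856 ± 355 and 816 ± 43.2 CPM in that order (SD, n = 4 each), a log2 fold change of 1.19 ± 0.123 SE with a 95% interval of 0.92 to 1.46 (edgeR adjusted p = 0.0144). The direction held when any library was left out, with log2 fold changes of 1.10 to 1.31. The adjusted p rose above the threshold without siCONTROL replicate 1 (0.0817), 2 (0.0759), 3 (0.0908) or 4 (0.0977) and without GFP mRNA replicate 1 (0.0804).

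The other groups of the series place this difference. On a CPM scale joint to all 48 libraries, Gap43 lay at 1370 to 2228 CPM with GFP mRNA, 2283 to 3551 with Atf4 mRNA and 1646 to 5047 with Atf4 plus Cebpg mRNA. In the 28 libraries of the 7 knockdowns it lay at 511 to 1045 CPM, and in siCONTROL at 768 to 875 CPM. At time 0, before culture, it lay at 341 to 407 CPM. All 12 mRNA libraries were thus above all 32 siRNA libraries of 42 h, whichever factor had been targeted. The mRNA groups and the siRNA groups also stand in separate tables, so this pattern is shared by everything that differs between the tables. Sprr1a, a small proline-rich protein induced by nerve injury, had a log2 fold change of 0.04 (95% interval -0.20 to 0.28), and Tubb3, the neuronal tubulin, of -0.05 (-0.21 to 0.12). Dpysl5, a collapsin response mediator of growth cones, lay at 64.3 to 76.1 CPM with GFP mRNA and 77.1 to 88.5 CPM with siCONTROL, without overlap (log2 fold change -0.25, adjusted p = 0.369).

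Among 13226 genes, 3 had all 12 mRNA libraries outside all 32 siRNA libraries (0.0227%), and the others besides Gap43 were Dnajb9 and Gas7. These were singled out after their values were seen. By this choice their GFP mRNA and siCONTROL libraries do not overlap on the joint scale, so the lack of overlap is no support. Dnajb9, a co-chaperone of the endoplasmic reticulum (ER), lay at 97.5, 86.7, 91.4 and 88.5 CPM with GFP mRNA, against 59.9, 53.1, 57.5 and 64.4 CPM with siCONTROL. Its log2 fold change was 0.64 ± 0.084 SE (edgeR adjusted p = 0.0575, limma-voom adjusted p = 0.0421). On the joint scale its mean was 92.1 CPM with GFP mRNA, 167 CPM with Atf4 mRNA and 269 CPM with Atf4 plus Cebpg mRNA, and 59.0 CPM with siCONTROL. Gas7, a growth arrest-specific protein of neurite and actin organisation, lay at 36.9, 31.3, 43.0 and 38.9 CPM with GFP mRNA, against 50.2, 52.2, 62.9 and 77.8 CPM with siCONTROL. Its log2 fold change was -0.70 ± 0.150 SE (edgeR adjusted p = 0.202). Neither gene passed the edgeR test on the 8 libraries.

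**Figure D2:**
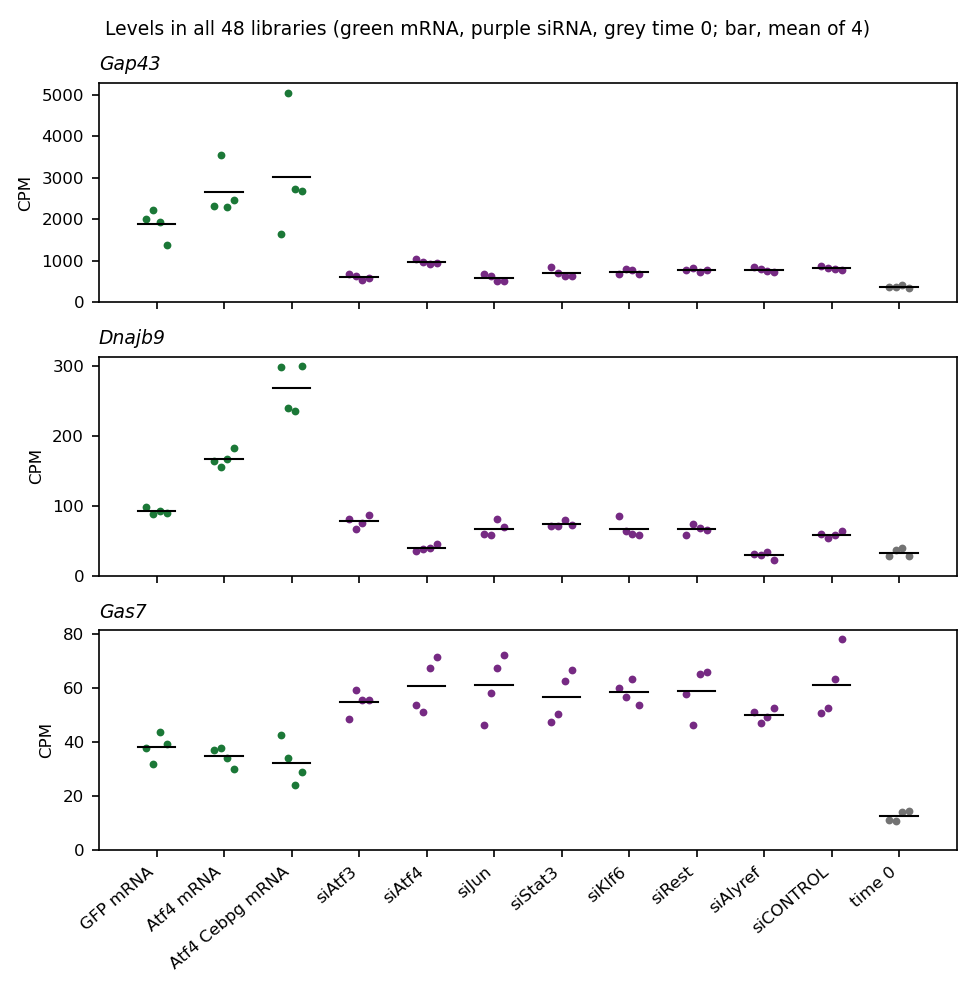
CPM of Gap43, Dnajb9 and Gas7 in each of the 48 libraries, by group, on a scale joint to the series; bars are means of 4 libraries. For each gene the 3 mRNA groups (green) lie on one side of all 8 siRNA groups (purple), which is the rule that picked out these 3 genes. Among the mRNA groups the GFP mRNA mean is nearest to the siRNA groups.

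Counting GFP mRNA alone, 17 genes had all 4 libraries outside the 32 siRNA libraries, 10 above (0.0756%) and 7 below (0.0529%), together 0.129% of genes. Above were Gap43, Dnajb9, Ifrd1, Amz1, Eif2s2, Acot6, Arl4c, Pdcd2, Rmrp and Lrrc59. Below were Apoe, Gas7, Daam2, Col28a1, Pcdh1, Tln2 and Cnp. Ifrd1, a transcriptional coregulator known from muscle and neutrophil differentiation, lay at 610, 662, 613 and 566 CPM with GFP mRNA, against 407, 344, 446 and 445 CPM with siCONTROL (log2 fold change 0.58 ± 0.089 SE, edgeR adjusted p = 0.0726). Eif2s2, the beta subunit of eIF2, had a log2 fold change of 0.33 (adjusted p = 0.202), and Lrrc59, a ribosome-associated protein of the ER, of 0.09 (adjusted p = 0.634). Lying outside all siRNA libraries thus went with differences as small as that of Lrrc59.

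Genes induced by type I interferon showed no common shift. Of 27 effector genes tested, edgeR, DESeq2, limma-voom and the fit of 44 libraries each called 0, and 2 were higher and 2 lower at an unadjusted p under 0.05. Over all genes tested 4.65% were higher and 5.08% lower at that threshold, the shares to set beside each list count below. The median log2 fold change of the effectors was 0.00, beside 0.00 over all genes tested (0.0003 and -0.0044 before rounding). Their summed level was 706 to 791 CPM with GFP mRNA and 706 to 854 CPM with siCONTROL. For 16 of the 27 the 95% interval lay within 2-fold, beside 85% of all genes tested. Larger differences remain possible for the others. Ifit1, which binds foreign 5′ ends, lay at 7.55, 2.77, 3.93 and 5.95 CPM with GFP mRNA, against 4.11, 4.13, 6.02 and 3.18 CPM with siCONTROL. The ranges overlapped, and its 95% interval ran from -0.58 to 0.95. Isg15, a ubiquitin-like protein, lay at 6.71, 7.62, 5.79 and 13 CPM with GFP mRNA, against 6.17, 9.48, 14.4 and 7.28 CPM with siCONTROL (95% interval -0.90 to 0.49).

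Single effectors pointed in opposite directions. Rsad2, the antiviral enzyme viperin and the highest estimate of the list, lay at 24.7, 30.3, 16.9 and 22 CPM with GFP mRNA, against 10.6, 16.4, 13.2 and 12.7 CPM with siCONTROL. The groups did not overlap, and the log2 fold change of 0.81 ± 0.193 SE did not pass (edgeR adjusted p = 0.256, DESeq2 adjusted p = 0.0514). Ifit3, a partner of Ifit1, lay at 11.7, 5.89, 6.20 and 7.32 CPM with GFP mRNA, against 12.1, 9.64, 13.2 and 11.1 CPM with siCONTROL (log2 fold change -0.56, adjusted p = 0.476). The Ifit genes are near-identical in parts, so reads can be split between them. The effectors Ifi27 and Ifitm3 had log2 fold changes of -0.08 (95% interval -0.32 to 0.17) and -0.39 (-0.83 to 0.05).

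Much higher interferon gene levels occurred elsewhere in the same table as siCONTROL. On the joint scale, Ifit1 reached 34.3 to 154 CPM with siStat3 and 20.6 to 225 CPM with siKlf6, while GFP mRNA lay at 2.81 to 7.66 CPM and siCONTROL at 3.19 to 6.04 CPM. Rsad2 was also high there, at 67.2 to 235 CPM with siStat3 and 34.5 to 233 CPM with siKlf6, against 17.1 to 30.7 CPM with GFP mRNA and 10.7 to 16.5 CPM with siCONTROL. At time 0 Ifit1 lay at 14.4 to 22.4 CPM, above both groups compared here.

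The machinery upstream of interferon was likewise without a call. Of 17 sensors and adaptors 0 passed in edgeR, DESeq2, limma-voom or the fit of 44 libraries, and 2 were higher and 1 lower at an unadjusted p under 0.05, with a median of 0.00. Ddx58 (RIG-I) lay at 17.8, 16.3, 12 and 13.5 CPM with GFP mRNA, against 13.5, 11.0, 12.4 and 11.8 CPM with siCONTROL, a log2 fold change of 0.30 (95% interval -0.06 to 0.65). Ifih1 (MDA5) and Dhx58 (LGP2, another helicase of the family) had log2 fold changes of 0.14 (-0.65 to 0.94) and 0.43 (-0.27 to 1.13). Tlr3 was scarce, at 1.03 to 2.93 CPM with GFP mRNA and 0.588 to 5.91 CPM with siCONTROL, and its interval of -2.05 to 0.42 was wide. Zc3hav1 (ZAP), which binds foreign CpG-rich RNA, lay at 77.3 to 83.1 CPM with GFP mRNA and 62.3 to 72.7 CPM with siCONTROL, without overlap (log2 fold change 0.27, adjusted p = 0.305). Znfx1, a sensor of double-stranded RNA at mitochondria, had a log2 fold change of -0.26 (adjusted p = 0.425).

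Among 15 regulators of the pathway, 0 passed in any of these 4 tests and 0 had an unadjusted p under 0.05. Jak1, a kinase bound to the interferon receptor, lay at 118 to 144 CPM with GFP mRNA and 117 to 153 CPM with siCONTROL (log2 fold change -0.07, 95% interval -0.28 to 0.14), and Ifngr2, a chain of the interferon gamma receptor, had a log2 fold change of -0.10 (-0.32 to 0.13). Ifnb1, the gene of interferon beta, had 0 counts in all 8 libraries. Of 9 interferon-inducible GTPases, which defend the cell against vacuolar pathogens, 0 passed in the 4 tests and 0 had an unadjusted p under 0.05. The 95% interval lay within 2-fold for 6 of the 9. Igtp lay at 21.7 to 32.5 CPM with GFP mRNA and 20.6 to 27.5 CPM with siCONTROL. Irgm1 had a log2 fold change of -0.33 (95% interval -0.82 to 0.16). Of 18 genes of class I antigen presentation 0 passed in the 4 tests, and 1 was higher at an unadjusted p under 0.05. B2m, the light chain of class I molecules, lay at 470 to 581 CPM with GFP mRNA and 448 to 569 CPM with siCONTROL (log2 fold change 0.04, 95% interval -0.16 to 0.25).

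**Figure D3:**
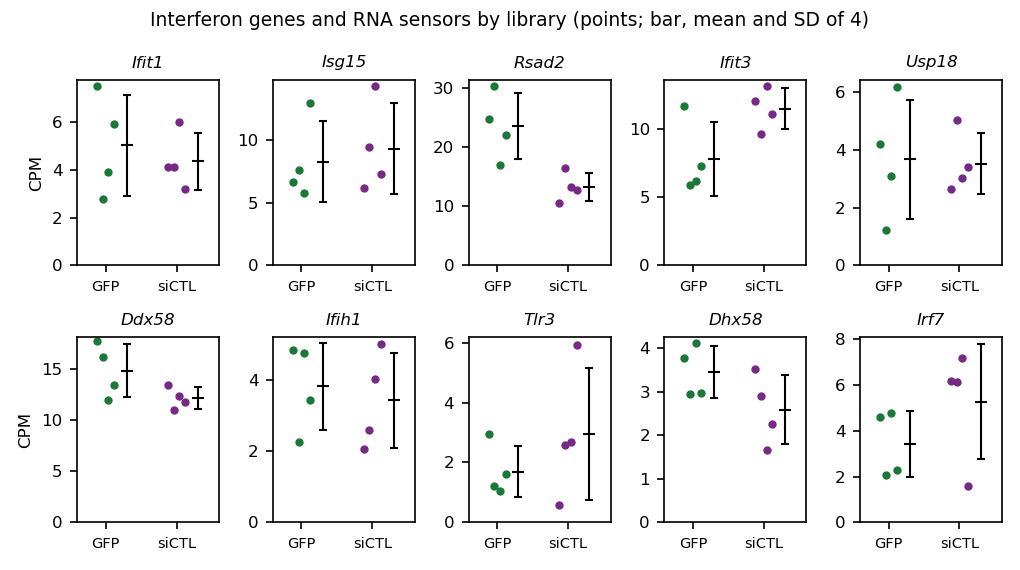
CPM of 10 interferon genes and RNA sensors in the 4 GFP mRNA and the 4 siCONTROL libraries (points), with the mean and SD of 4 beside them; each vertical axis starts at 0. The groups overlap for every gene shown except Rsad2, and none passed the edgeR test.

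Of 18 inflammatory genes driven by NF-kB, 0 passed in the 4 tests, with 1 higher at an unadjusted p under 0.05 and a median of -0.02. The 95% interval lay within 2-fold for 10 of the 18. Cxcl10, a chemokine induced by interferon and NF-kB, lay at 12.6 to 19.9 CPM with GFP mRNA and 11.0 to 17.5 CPM with siCONTROL. Csf1, the macrophage growth factor that injured sensory neurons release, had a log2 fold change of 0.19 (95% interval -0.01 to 0.39), and Nfkb1, a subunit of NF-kB itself, of -0.15 (-0.40 to 0.10). Ccl7, a monocyte chemokine, and Lif, a cytokine of the gp130 family, were the ends of the list at -0.95 (adjusted p = 0.584) and 0.76 (adjusted p = 0.503).

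The genes of RNA interference itself did not pass either. Of 13 tested, 0 passed in the 4 tests, and 1 was lower at an unadjusted p under 0.05: Ago1, an Argonaute, at 7.23 to 8.92 CPM with GFP mRNA and 10.6 to 12.6 CPM with siCONTROL, without overlap (log2 fold change -0.48, adjusted p = 0.361). Drosha, which crops primary microRNAs in the nucleus, had a log2 fold change of 0.09 (95% interval -0.10 to 0.28), and Snd1, a nuclease linked to the silencing complex, of 0.03 (-0.21 to 0.28). Of 19 factors of cytoplasmic mRNA decay, 0 passed in the 4 tests and 0 had an unadjusted p under 0.05. Ythdf2, a reader of methylated mRNA, lay at 75.6 to 85.6 CPM with GFP mRNA and 68.0 to 80.5 CPM with siCONTROL. Cnot7, a deadenylase of the CCR4-NOT complex, had a log2 fold change of -0.12 (95% interval -0.41 to 0.16).

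Regulators and effectors of the integrated stress response lay mostly above 0. Of 18 tested, edgeR called 0, DESeq2 called 3 higher, the fit of 44 libraries called 1 higher and limma-voom 0. At an unadjusted p under 0.05, 9 were higher and 1 lower, beside 4.65% and 5.08% over all genes tested. The median log2 fold change was 0.23, beside 0.00 over all genes, and 16 of the 18 estimates were positive. The list summed to 3762 to 4424 CPM with GFP mRNA and 3301 to 3563 CPM with siCONTROL. Ddit3 (CHOP), a stress-induced transcription factor downstream of ATF4, lay at 537, 690, 585 and 524 CPM with GFP mRNA, against 392, 383, 435 and 366 CPM with siCONTROL. All GFP mRNA libraries were higher, and the log2 fold change was 0.57 ± 0.093 SE (edgeR adjusted p = 0.109, DESeq2 adjusted p = 7.95e-06, fit of 44 libraries 0.012). Chac1, which degrades glutathione, lay at 140, 151, 149 and 145 CPM with GFP mRNA, against 120, 105, 126 and 88.5 CPM with siCONTROL (log2 fold change 0.41, edgeR adjusted p = 0.267, DESeq2 0.0418). Atf4 itself had a log2 fold change of 0.19 (95% interval 0.02 to 0.36, adjusted p = 0.45), and Atf3, an injury-induced partner, of 0.03 (-0.15 to 0.22).

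Ddit3 was not outside the range of the siRNA table. On the joint scale its mean was 591 CPM with GFP mRNA, 564 CPM with siAtf3, 720 CPM with siJun, 574 CPM with siStat3 and 396 CPM with siCONTROL. The GFP mRNA libraries lay at 529 to 699 CPM, and the siJun libraries at 630 to 775 CPM.

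Genes of amino acid supply, many of them known targets of ATF4, had mostly positive estimates. Of 13 synthesis genes, 0 passed in edgeR, DESeq2, limma-voom and the fit of 44 libraries. At an unadjusted p under 0.05, 5 of these synthesis genes were higher and 0 lower, beside 4.65% and 5.08% over all genes tested. Their median was 0.19 and all 13 estimates were positive, though Aldh18a1, a proline synthesis enzyme at 0.01, turned to -0.00448 when libraries were scaled by their totals alone. Psat1, an enzyme of serine synthesis, lay at 207, 190, 194 and 180 CPM with GFP mRNA, against 163, 163, 186 and 164 CPM with siCONTROL (log2 fold change 0.19, adjusted p = 0.424). Asns, asparagine synthetase, had a log2 fold change of 0.14 (95% interval -0.01 to 0.29), and Got1, an aspartate aminotransferase, of 0.16 (-0.03 to 0.34). The highest estimate was that of Cth, which makes cysteine from cystathionine, at 6.5, 8.31, 8.06 and 7.09 CPM with GFP mRNA, against 3.53, 4.89, 6.52 and 4.09 CPM with siCONTROL. The ranges overlapped slightly, and its log2 fold change was 0.63 (95% interval 0.11 to 1.15, adjusted p = 0.42). Of 10 amino acid transporters edgeR, DESeq2 and limma-voom called 0, the fit of 44 libraries called 1 higher, and 3 were higher at an unadjusted p under 0.05, with a median of 0.14. Slc3a2, the shared heavy chain of several transporters, lay at 364 to 376 CPM with GFP mRNA and 320 to 333 CPM with siCONTROL, without overlap (log2 fold change 0.17, adjusted p = 0.345). Slc7a11, the cystine carrier, had the highest estimate at 0.47 (95% interval -0.02 to 0.96), and Slc38a2, a carrier of neutral amino acids, the lowest at 0.00 (-0.17 to 0.17; -0.0168 when libraries were scaled by their totals alone).

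Of 20 cytosolic tRNA synthetases edgeR and limma-voom called 0, DESeq2 and the fit of 44 libraries each called 1 higher, and 3 were higher at an unadjusted p under 0.05. The median was 0.15 and 17 estimates were positive. Eprs, which charges glutamate and proline tRNAs, lay at 189, 197, 211 and 202 CPM with GFP mRNA, against 169, 169, 163 and 169 CPM with siCONTROL, without overlap (log2 fold change 0.25, edgeR adjusted p = 0.259, DESeq2 0.0413, fit of 44 libraries 0.00287). Mars, methionyl tRNA synthetase, was the lowest at -0.19 (95% interval -0.41 to 0.02). Nars and Gars, which charge asparagine and glycine tRNAs, had log2 fold changes of 0.14 (-0.04 to 0.32) and 0.12 (-0.02 to 0.25).

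Folding genes of the ER were split. Of 19 tested, edgeR called 0, and 5 were higher and 2 lower at an unadjusted p under 0.05; DESeq2 called 4 higher, the fit of 44 libraries 3 higher and limma-voom 1 higher, Dnajb9. Hspa5 (BiP), the main chaperone of the ER lumen, lay at 934, 1095, 1071 and 1041 CPM with GFP mRNA, against 837, 792, 816 and 817 CPM with siCONTROL. All GFP mRNA libraries were higher, with a log2 fold change of 0.34 ± 0.063 SE (edgeR adjusted p = 0.159, DESeq2 6.47e-05, fit of 44 libraries 0.0106). Hspa5 was not outside the range of the siRNA groups. With libraries scaled by their totals alone, its mean was 1024 CPM with GFP mRNA. Means of the 7 knockdowns ran from 547 CPM with siAtf4 to 1336 CPM with siAtf3. Sdf2l1, a partner of BiP, lay at 104, 116, 110 and 107 CPM with GFP mRNA, against 90.2, 88.6, 78.9 and 86.7 CPM with siCONTROL (log2 fold change 0.35, edgeR adjusted p = 0.202). Edem1, which directs misfolded glycoproteins to degradation, pointed the other way, at 15.9 to 22 CPM with GFP mRNA and 22.7 to 30.6 CPM with siCONTROL (log2 fold change -0.46, adjusted p = 0.333). Calr, the lectin chaperone calreticulin, had a log2 fold change of 0.02 (95% interval -0.14 to 0.18). Ero1l, an oxidase that drives disulfide formation in the ER and belongs to none of the lists, was singled out after its values were seen, at 143, 148, 147 and 162 CPM with GFP mRNA, against 95.8, 82.8, 112 and 115 CPM with siCONTROL (log2 fold change 0.56, edgeR adjusted p = 0.159, DESeq2 0.000841).

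Of 15 antioxidant genes controlled by NRF2, edgeR called 0 and 4 were higher at an unadjusted p under 0.05; DESeq2 called 3 higher, the fit of 44 libraries 2 and limma-voom 1. Hmox1, heme oxygenase 1, lay at 319, 360, 328 and 364 CPM with GFP mRNA, against 243, 244, 212 and 202 CPM with siCONTROL. The groups did not overlap, with a log2 fold change of 0.61 ± 0.082 SE (edgeR adjusted p = 0.0575, limma-voom 0.0421, DESeq2 1.51e-08). On the joint scale Hmox1 was as high in part of the siRNA table, with means of 347 CPM with GFP mRNA, 389 CPM with siJun and 226 CPM with siCONTROL. Txnrd1, thioredoxin reductase, had a log2 fold change of 0.23 (edgeR adjusted p = 0.296, DESeq2 0.0432). Srxn1, which repairs overoxidised peroxiredoxins, lay at 1885 to 2144 CPM with GFP mRNA and 1677 to 2095 CPM with siCONTROL. Prdx1, a peroxiredoxin, had a log2 fold change of 0.32 (95% interval 0.10 to 0.54, adjusted p = 0.346). Cytosolic heat shock genes were without a call in the 4 tests, with 1 of 14 lower at an unadjusted p under 0.05. Hspa8, the constitutive chaperone, had a log2 fold change of 0.04 (95% interval -0.11 to 0.20), and Hsp90ab1, a chaperone of signalling proteins, of 0.05 (-0.09 to 0.19).

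**Figure D4:**
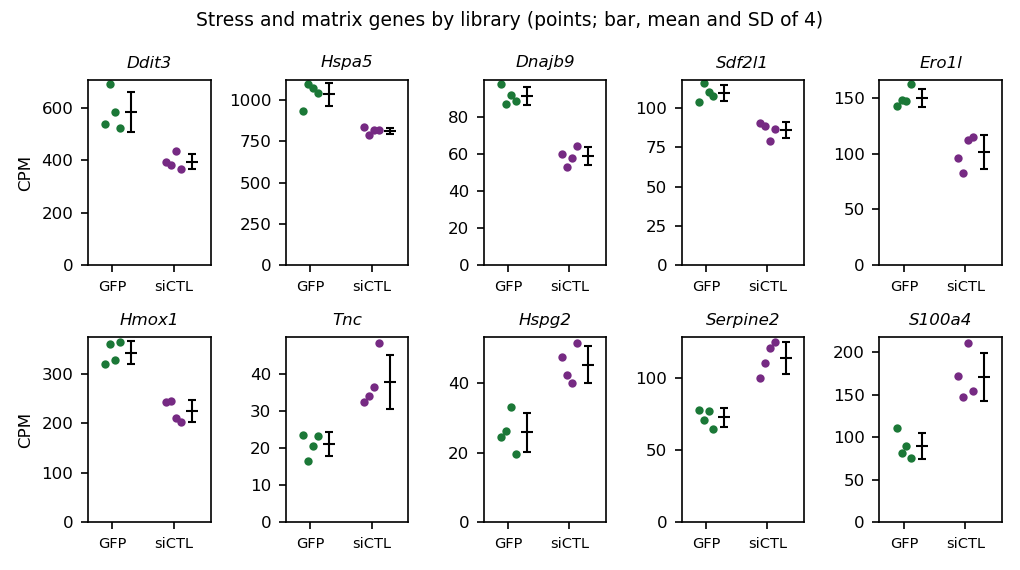
CPM of 6 stress genes (Ddit3, Hspa5, Dnajb9, Sdf2l1, Ero1l, Hmox1) and 4 genes of matrix, protease inhibition and S100 signalling (Tnc, Hspg2, Serpine2, S100a4) in the 4 GFP mRNA and the 4 siCONTROL libraries (points), with the mean and SD of 4 beside them. No gene shown has overlapping groups, but all except Hspa5 were chosen after their values were seen, so this is no support. None passed the edgeR test on the 8 libraries.

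Extracellular matrix genes lay mostly below 0. Of 19 tested, edgeR and limma-voom called 0, DESeq2 called 2 lower and the fit of 44 libraries 1 lower. At an unadjusted p under 0.05, 0 were higher and 6 lower, beside 4.65% and 5.08% over all genes tested. The median log2 fold change was -0.47 and 18 estimates were negative. The list summed to 612 to 732 CPM with GFP mRNA and 786 to 1159 CPM with siCONTROL. Tnc, the matrix glycoprotein tenascin C, lay at 23.5, 16.6, 20.7 and 23.3 CPM with GFP mRNA, against 32.3, 34.1, 36.3 and 48.2 CPM with siCONTROL. All GFP mRNA libraries were lower, with a log2 fold change of -0.85 ± 0.159 SE (edgeR adjusted p = 0.159, DESeq2 0.00305, fit of 44 libraries 0.00172). Sparc, a collagen-binding protein, lay at 283, 255, 326 and 277 CPM with GFP mRNA, against 365, 326, 541 and 545 CPM with siCONTROL (log2 fold change -0.64, edgeR adjusted p = 0.267, DESeq2 0.0167). Timp1, an inhibitor of matrix proteases, had a log2 fold change of -0.30 (95% interval -0.64 to 0.05).

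Markers of glia and fibroblasts and cell cycle genes also had negative medians, while macrophage markers had a positive one. In bulk samples, fewer cells of a type and less RNA per cell cannot be told apart. Satellite glia markers had a median of -0.36, with 8 of 9 estimates negative, and summed to 614 to 689 CPM with GFP mRNA and 756 to 894 CPM with siCONTROL. EdgeR, limma-voom and the fit of 44 libraries called 0 of them, and DESeq2 called 1 lower. At an unadjusted p under 0.05, 4 were lower, beside 5.08% over all genes tested. Apoe, the lipid carrier made by satellite glia, lay at 120, 107, 149 and 116 CPM with GFP mRNA, against 215, 171, 335 and 313 CPM with siCONTROL. The groups did not overlap, with a log2 fold change of -1.07 ± 0.197 SE (edgeR adjusted p = 0.159, DESeq2 1.85e-05). Glul, glutamine synthetase, had a log2 fold change of -0.02 (95% interval -0.28 to 0.25). At time 0 Apoe lay at 3606 to 4514 CPM on the joint scale, far above both groups.

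Schwann cell markers had a median of -0.29, with 10 of 10 estimates negative, 2 lower at an unadjusted p under 0.05 and 0 calls in the 4 tests. They summed to 1273 to 1396 CPM with GFP mRNA and 1384 to 1607 CPM with siCONTROL. Pmp22, a myelin protein, had a log2 fold change of -0.07 (95% interval -0.23 to 0.09), and Ngfr, the low-affinity neurotrophin receptor, of -0.28 (adjusted p = 0.369). Fibroblast markers had a median of -0.67 over 6 genes, with 3 lower at an unadjusted p under 0.05 and 0 calls in the 4 tests. Postn, a matrix protein of fibroblasts, lay at 33.5, 13.3, 37.0 and 31.1 CPM with GFP mRNA, against 47.3, 34.3, 95.8 and 100 CPM with siCONTROL (log2 fold change -1.28, adjusted p = 0.3). Dcn, the fibroblast proteoglycan decorin, was at 0.00 (-0.55 to 0.55). The 10 cell cycle genes tested, read as a sign of dividing cells, had a median of -0.47, with 2 lower at an unadjusted p under 0.05 and 0 calls in the 4 tests. Mki67 lay at 0.866 to 2.31 CPM with GFP mRNA and 2.91 to 4.32 CPM with siCONTROL (log2 fold change -1.03, adjusted p = 0.369). Summed cell cycle levels of 160 to 190 CPM with GFP mRNA and 165 to 228 CPM with siCONTROL overlapped. Pcna and Mcm5, replication factors, had log2 fold changes of -0.05 (95% interval -0.21 to 0.10) and -0.26 (-0.69 to 0.18). Endothelial and mural markers had a median of -0.09 over 11 genes, with 1 lower at an unadjusted p under 0.05 and 0 calls in the 4 tests. Of these, Egfl7 and Rgs5 were at 0.09 (-0.23 to 0.41) and 0.03 (-0.14 to 0.19). The 3 macrophage markers tested had a positive median of 0.43, with 1 higher and 1 lower at an unadjusted p under 0.05 and 0 calls in the 4 tests. Cd68, a lysosomal protein of macrophages, lay at 33.7 to 68.0 CPM with GFP mRNA and 23.5 to 39.3 CPM with siCONTROL (log2 fold change 0.60, 95% interval 0.10 to 1.09, adjusted p = 0.425), and Cd14, a receptor for bacterial lipid, was at 0.43 (-0.17 to 1.04). Csf1r, of the same list, pointed the other way at -0.78 (95% interval -1.51 to -0.04, edgeR adjusted p = 0.491). S100a8 of granulocytes was at 0.19 (-0.34 to 0.72), and the epithelial markers Krt19 and Cldn1 were at 0.36 (-0.36 to 1.08) and -0.39 (-1.23 to 0.44). The part of non-neuronal cells in the matrix gene differences was not tested.

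The size of these estimates differed between the libraries with Y-linked counts and those with Xist. For the matrix genes the median was -0.28 between the Y-linked libraries alone and -0.57 between the Xist libraries alone, and for fibroblast markers -0.29 and -0.88. In the same order the median was -0.11 and -0.87 for cell cycle genes, -0.18 and -0.48 for satellite glia markers, and 0.59 and 0.20 for mitochondrially encoded genes. For Apoe the log2 fold changes were -0.74 and -1.29 in that order, and each rests on 2 libraries a group. The corresponding values for Gap43 were 1.30 and 1.06. The difference between the 2 kinds of library was not tested.

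Neuronal identity genes were without a call, though most of their estimates were negative. Of 17 pan-neuronal markers 0 passed in the 4 tests and 3 were lower at an unadjusted p under 0.05, with a median of -0.03 and 11 negative estimates. Elavl4, a neuronal RNA-binding protein, was the lowest at -0.43, with 120 to 166 CPM with GFP mRNA and 160 to 242 CPM with siCONTROL (adjusted p = 0.36). Nociceptor markers (18 tested) and markers of large-diameter neurons (15 tested) had medians of -0.14 and -0.24, each with 0 calls in the 4 tests. Negative estimates numbered 14 of 18 and 12 of 15 in that order. At an unadjusted p under 0.05, 2 nociceptor markers were higher and 1 lower, and 1 large-diameter marker was higher and 1 lower. P2rx3, the ATP receptor of non-peptidergic nociceptors, lay at 596, 537, 659 and 521 CPM with GFP mRNA, against 450, 437, 534 and 466 CPM with siCONTROL (log2 fold change 0.29, adjusted p = 0.333). Calca, the precursor of the peptide CGRP, had a log2 fold change of -0.14 (95% interval -0.34 to 0.07). Nefl, the neurofilament light chain, lay at 1544 to 2110 CPM with GFP mRNA and 1923 to 2891 CPM with siCONTROL (log2 fold change -0.26, adjusted p = 0.575), and Nefm, the medium chain, had a log2 fold change of -0.24 (95% interval -0.66 to 0.18).

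Among 28 regeneration-associated genes Gap43 rose and 0 fell by edgeR, and the median of the list was -0.04. At an unadjusted p under 0.05, 4 were higher and 3 lower, and DESeq2 called 2 higher. Ecel1, an injury-induced endopeptidase of neurons, lay at 221, 270, 250 and 228 CPM with GFP mRNA, against 239, 204, 197 and 176 CPM with siCONTROL (log2 fold change 0.25, adjusted p = 0.447). Of 23 genes of axon growth and tubulin, Gap43 was again the single call, 19 estimates were negative and the median was -0.06, with 2 higher and 2 lower at an unadjusted p under 0.05. Csrp3, a muscle LIM protein that injured neurons also make, was the lowest of the regeneration list at -0.54 (95% interval -1.39 to 0.32). Ion channels (25 tested, median -0.10), injury-induced neuropeptides (13, median -0.10) and synaptic vesicle genes (23, median -0.03) had 0 calls in the 4 tests. Negative estimates numbered 19, 11 and 13 in that order. At an unadjusted p under 0.05, 2 channel genes and 1 neuropeptide gene were lower, and 1 vesicle gene was higher. Over all genes tested 4.65% were higher and 5.08% lower. Scn10a, the pain-linked sodium channel Nav1.8, lay at 85.1 to 91.9 CPM with GFP mRNA and 81.9 to 94.9 CPM with siCONTROL (log2 fold change 0.00, 95% interval -0.17 to 0.16). Scn9a, the sodium channel Nav1.7, lay at 59.5 to 89.7 CPM with GFP mRNA and 90.2 to 104 CPM with siCONTROL, without overlap (log2 fold change -0.29, adjusted p = 0.481), and Cacna2d1, a calcium channel subunit, was at -0.21 (-0.45 to 0.04). The neuropeptide genes Adcyap1 and Vgf were at -0.07 (-0.24 to 0.09) and 0.02 (-0.19 to 0.22). Syt4, a synaptotagmin, was at 0.25 (0.04 to 0.45, adjusted p = 0.424), and Vamp2, a vesicle SNARE, at 0.09 (-0.04 to 0.23).

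**Figure D5:**
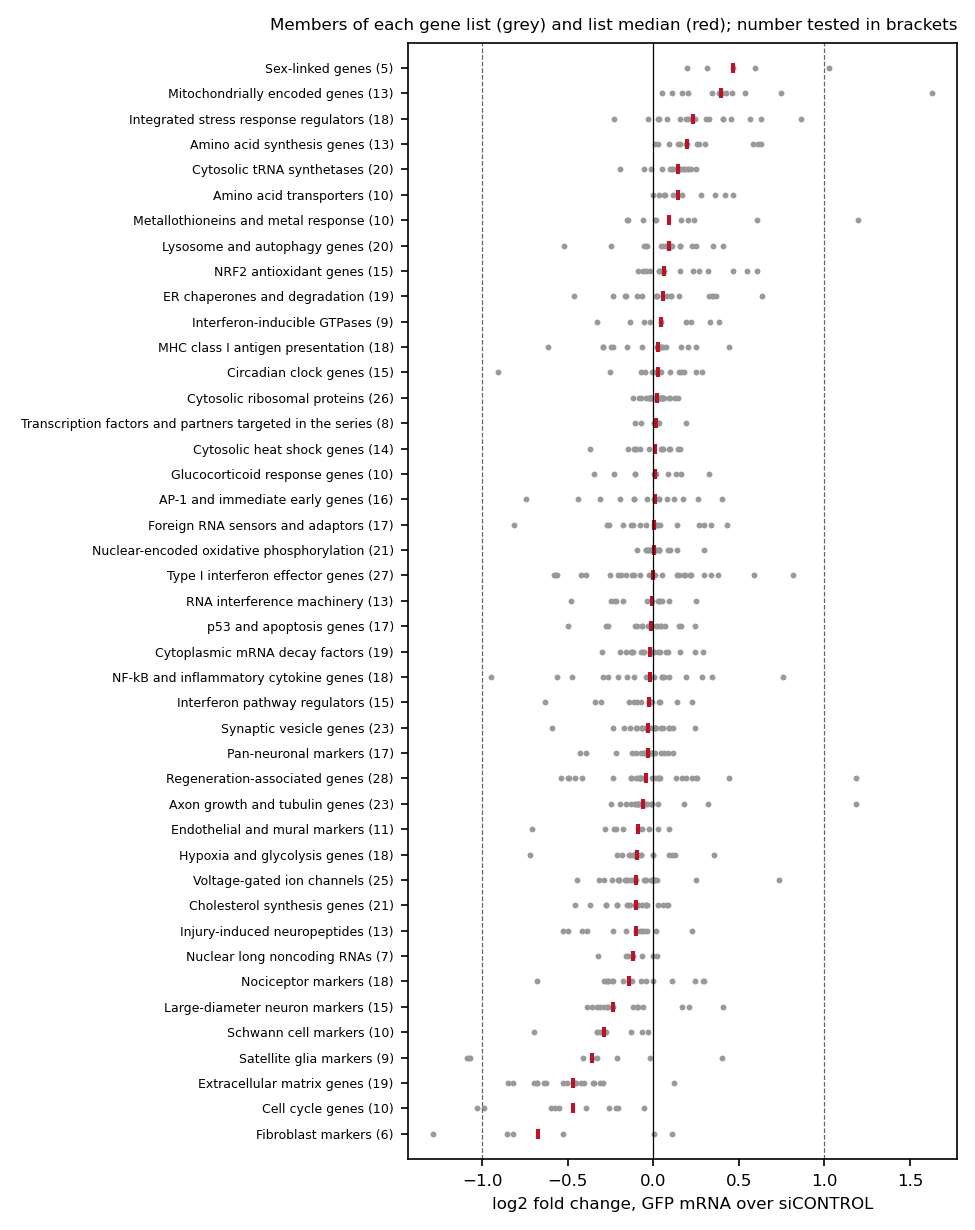
Log2 fold change, GFP mRNA over siCONTROL, of each tested member (grey) of the gene lists with at least 5 members tested, with the list median in red and the number tested in brackets. Interferon and sensor lists centre near 0. The sex-linked and mitochondrially encoded lists lie furthest to the right, and the integrated stress response and amino acid lists also lie to the right. Matrix, glial, fibroblast, cell cycle and large-diameter neuron lists lie to the left. Gap43 is the outlying point at 1.19 in the regeneration and axon growth lists.

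The 8 factors and partners targeted in the series were themselves compared between these controls, and 0 of 8 passed in the 4 tests, with 1, Atf4, at an unadjusted p under 0.05. Jun had a log2 fold change of 0.01 (95% interval -0.15 to 0.16), Stat3 of -0.07 (-0.20 to 0.06) and Klf6 of 0.02 (-0.16 to 0.21). For Rest, the repressor of neuronal genes, it was -0.11 (-0.49 to 0.27), for the mRNA export factor Alyref 0.00 (-0.22 to 0.22), and for Cebpg, the dimer partner of ATF4, 0.03 (-0.25 to 0.30).

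Of 26 cytosolic ribosomal proteins 0 passed in the 4 tests and 1 was higher at an unadjusted p under 0.05, with a median of 0.02. Rplp0, a stalk protein of the ribosome, lay at 1048 to 1197 CPM with GFP mRNA and 1095 to 1189 CPM with siCONTROL (95% interval -0.15 to 0.11), and Rplp1, another stalk protein, had a log2 fold change of 0.04 (-0.15 to 0.23). Of 21 nuclear genes of oxidative phosphorylation 0 passed in the 4 tests and 0 had an unadjusted p under 0.05, with a median of 0.00. Atp5b, of the ATP synthase, and Cox6a1, of cytochrome oxidase, were at 0.01 (-0.16 to 0.18) and 0.00 (-0.16 to 0.16). All 13 mitochondrially encoded genes had positive estimates, with a median of 0.40, 2 higher at an unadjusted p under 0.05 and 0 calls in the 4 tests. The oxidase subunit mt-Co1 had a log2 fold change of 0.11 (-0.09 to 0.32), and mt-Co2 of 0.20 (-0.05 to 0.45). The short mt-Atp8 lay at 12560, 973, 5340 and 1755 CPM with GFP mRNA, against 2267, 553, 2838 and 1015 CPM with siCONTROL, with a log2 fold change of 1.63 (adjusted p = 0.5) and its higher values in replicates 1 and 3 of both groups. Circadian, glucocorticoid, p53, cholesterol, lysosome and hypoxia lists had medians from -0.10 to 0.09 and 0 calls in the 4 tests. At an unadjusted p under 0.05, 4 lysosome genes were higher and 1 lower, 4 cholesterol genes were lower, 1 hypoxia gene was higher and 2 lower, 2 circadian and 2 p53 genes were lower, and 1 glucocorticoid gene was higher and 1 lower. Over all genes tested 4.65% were higher and 5.08% lower. Mvd, an enzyme of cholesterol synthesis, had a log2 fold change of -0.46 (adjusted p = 0.277), and Sqstm1, the autophagy receptor p62, lay at 2699, 3183, 2786 and 2774 CPM with GFP mRNA, against 2553, 2570, 2398 and 2262 CPM with siCONTROL (log2 fold change 0.23, adjusted p = 0.338). Further log2 fold changes in these lists were as follows: Ctsb, a lysosomal protease, 0.09 (-0.04 to 0.21), Cdkn1a and Bax of the p53 response -0.01 (-0.16 to 0.13) and -0.11 (-0.26 to 0.05), and the glycolytic Aldoa and Gapdh 0.00 (-0.18 to 0.17) and -0.11 (-0.24 to 0.01). Fdps and Hmgcs1 of cholesterol synthesis were at -0.09 (-0.30 to 0.12) and -0.15 (-0.36 to 0.05), and the clock genes Cry2 and Nfil3 at -0.05 (-0.25 to 0.14) and 0.15 (-0.10 to 0.40). Of glucocorticoid targets, Mt2 was at 0.16 (-0.22 to 0.54) and Ddit4 at -0.23 (-0.44 to -0.02, adjusted p = 0.478). Of 7 nuclear noncoding RNAs and 4 replication-dependent histones, 0 passed in the 4 tests and 0 had an unadjusted p under 0.05. Rian and Malat1 were at 0.00 (-0.17 to 0.16) and -0.32 (-0.99 to 0.34), and Hist1h1c and Hist1h2bc at 0.15 (-0.03 to 0.32) and 0.10 (-0.07 to 0.27).

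Over all 49 lists, 655 of 746 matched genes were tested and 1, Gap43, passed the edgeR test. The medians that stood furthest from that of all genes, among lists with at least 5 genes tested, were the fibroblast, cell cycle and matrix lists below and the sex-linked, mitochondrial and integrated stress response lists above. With libraries scaled by their totals alone, the list medians moved little: the matrix median was -0.49 and that of the integrated stress response 0.21. Markers of blood were near the limit of this depth: the red cell markers Hba-a1 and Hba-a2 with the rest of their list summed to 2.89 to 10.9 CPM with GFP mRNA and 4.35 to 11.8 CPM with siCONTROL, and Mylpf of muscle lay at 0.915 to 9.92 CPM with GFP mRNA and 3.98 to 16.1 CPM with siCONTROL.

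DESeq2 and the fit of 44 libraries shared 36 genes, 23 higher and 13 lower, which is 45.6% of DESeq2's calls and 59.0% of the other fit's. These fits share the 8 libraries, so this overlap is no independent check. All 36 were without overlap between the groups, beside 5.97% of all genes tested, but they were chosen by tests on these same libraries. Their edgeR adjusted p on the 8 libraries was 0.0144 for Gap43 and 0.0575 to 0.296 for the others. Among the lower genes were S100a4, a calcium-binding protein of motile and glial cells, and Serpine2, the secreted protease inhibitor nexin 1. S100a4 lay at 111, 81.4, 90.3 and 75.7 CPM with GFP mRNA, against 172, 147, 211 and 154 CPM with siCONTROL (log2 fold change -0.93 ± 0.139 SE, edgeR adjusted p = 0.0726). Serpine2 lay at 77.8, 70.8, 77.1 and 64.3 CPM with GFP mRNA, against 99.9, 110, 121 and 124 CPM with siCONTROL (log2 fold change -0.65 ± 0.094 SE, edgeR adjusted p = 0.0709).

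The genes of this set, S100a4 and Serpine2 included, were singled out after their values were seen, except Gap43 and Hspa5. The lower ones include further matrix genes, Hspg2 (perlecan, -0.80), Col5a2 (-0.80), Col28a1 (-1.24) and Tgfbi (-0.99), beside Sectm1b (-1.57), Gas7, Cdkn2d (-0.48), Rgs4 (-0.40), Map4k4 (-0.37) and Cavin3 (-0.36), all as log2 fold changes. Against the mean of the 8 siRNA groups, Rgs4 was at -0.05 (edgeR adjusted p = 0.791) and Cavin3 at -0.12 (0.383). Cdkn2d was at -0.25 (0.0721) and Tgfbi at -0.47 (0.0971) there. The other lower genes named here had an adjusted p under 0.05 in that contrast. The higher ones include Rfk, which makes the flavin cofactor FMN, at 160, 135, 154 and 143 CPM with GFP mRNA, against 90.5, 95, 104 and 110 CPM with siCONTROL (log2 fold change 0.57, edgeR adjusted p = 0.0726). Hspa9, the mitochondrial chaperone mortalin, lay at 601, 659, 625 and 642 CPM with GFP mRNA, against 544, 531, 547 and 522 CPM with siCONTROL, a log2 fold change of only 0.24 with separate groups. Prss37, a serine protease homologue known from testis, had the largest positive estimate of the set at 1.30, with 21.8 to 27.0 CPM with GFP mRNA and 5.51 to 14.4 CPM with siCONTROL. On the joint scale Prss37 also reached 16.3 to 30.7 CPM with siStat3 and had 0 counts in the time 0 libraries.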

How the data were processed

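The authors deposited expected counts per gene, in 1 table for the mRNA libraries and 1 for the siRNA and time 0 libraries. The submitters' processing notes name kallisto and GRCm39. Details of version, annotation release and scaling were not given in the sources used here. In all 48 libraries, the small values of 3003 genes with 1 transcript and a length of 2000 bp or more, multiplied by length minus a constant, piled up near 1797 to 2078 bp (88.2 to 96.7% within 4%), a form that counts derived from TPM share. It was the same in both tables, so 1 fit over both was used, and no level is tested between genes. Symbols (32470 of 34183 IDs) came from GENCODE annotation of the older build GRCm38; no coordinates were used.

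Expected counts were rounded to whole numbers, filtered with filterByExpr, scaled by TMM and fitted with edgeR 4.0.16 (R 4.3.3; glmQLFit, glmQLFTest, no covariate). Intervals are 95% intervals of the fit and cover the spread between libraries. CPM are counts over the TMM-scaled library total; where all 48 libraries are set side by side, factors were computed over all of them. DESeq2 1.42.0 and limma 3.58.1 were alternatives, and the code was tested on simulated data. No identical libraries were found. By the naming rule, called genes and, for each list without a call, its 2 members of highest mean CPM are named (sex-linked genes only as counts of libraries), with the targeted genes; the others, such as the ends of lists and genes known for their role, were chosen after their values were seen. Gene lists and alternatives were chosen with earlier results of these data known.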

Additional observations from a re-analysis of the deposited data

Results flagged for a closer look

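In 460 groups of 4 libraries (230 named genes in 2 groups) and in 10 groups of library measures, a library was looked for whose gap to the nearest other exceeded Dixon's 95% limit for 4 values. It was found 21 times among the genes, 4.57%, and 1 time among the measures, and chance flags about 1 in 20. Values are CPM unless stated.

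With GFP mRNA, replicate 1 stood apart for the iron exporter Slc40a1 (16.6, others 2.06 to 3.51). Replicate 2 stood apart for Vgf (1353, others 1108 to 1144), Mcm5 (9.18, others 10.9 to 11.3), Daam2 (2.08, others 2.48 to 2.52), Slc7a11 (11.6, others 19.7 to 21) and Ebp (58.3, others 47.6 to 48.4). Replicate 3 stood apart for Nfkb1 (22.5, others 25.6 to 26.1), Jun (271, others 300 to 303), Nefl (1544, others 2080 to 2110), Rmrp (51.0, others 15.6 to 19.3), Pmaip1 (28.5, others 44.3 to 47.4) and Cspg4 (8.47, others 5.03 to 5.54). Replicate 4 stood apart for Ythdf2 (85.6, others 75.7 to 77.3).

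With siCONTROL, replicate 1 stood apart for Slc3a2 (320, others 331 to 333) and replicate 2 for Mt1 (670, others 601 to 605). Replicate 3 stood apart for Eprs (163, others 169 to 169), Psat1 (186, others 163 to 164), Ifit3b (5.52, others 2.91 to 2.96), Hk2 (10.5, others 10.2 to 10.3), Ebp (62.5, others 40.2 to 43.7), Fam19a1 (12, others 15.6 to 15.7) and the share of counts in ribosomal protein genes (6.48%, others 6.08 to 6.12%).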

How the results depend on the processing

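Of 5593 values of 235 named genes under the alternatives, 5270 kept their side of the threshold, 289 passed newly, 7 lost their pass and 27 turned their sign with a pass on one side. The 5270 include 293 values that changed their sign without a pass on either side. Calls higher and lower (1 and 0 in the comparison as reported) were 44 and 35 with DESeq2, 4 and 0 with limma-voom, 5 and 2 with no filter, 3 and 2 at 10 CPM or more, 39 and 22 with all 44 libraries, 5 and 1 with length and GC offsets, 406 and 201 against the mean of the 8 siRNA groups, and 2495 and 2340 for the 3 mRNA groups against the 8 siRNA groups, which is another contrast. Of at least 2-fold they were 7 and 6, 2 and 0, 3 and 0, 1 and 0, 2 and 5, 1 and 0, 25 and 25, and 322 and 81 in the same order. List genes called (1 as reported) were 16, 3, 3, 3, 11, 4, 101 and 337. Without 1 library at a time, 0 to 2 were higher and 0 to 1 lower, of at least 2-fold 0 to 2 and 0 to 1, and 0 to 1 list genes. Library measures stayed within their spread, and genes outside all siRNA libraries were 12 with library totals.

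Replicate numbers are shared by both groups. Deviations of same-numbered libraries correlated at 0.054, 0.435, 0.371 and 0.240 over 7294 genes; the first is below 0.1, so the numbers were not taken as pairs, though every library correlated best with its own number. With the replicate block, 1 gene was higher and 0 lower (1659 at an unadjusted p under 0.05), and 1 and 1 with length and GC offsets. Added after the data were seen, a term for Y-linked or Xist libraries gave 1 and 0. The Y-linked libraries alone gave 0 and 0 (710 at an unadjusted p under 0.05), as did the Xist libraries alone (904), each with 2 libraries a group; list genes and 2-fold calls were 0 there. Gap43's log2 fold change was 1.30 and 1.06 in those (adjusted p = 0.0963 and 0.474).

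The 27 values that turned with a pass on one side lie in contrasts with other groups. The cause was not tested. Against the mean of the 8 siRNA groups, which includes siStat3, Stat3 was at 0.24 and Glul at 0.31. For the 3 mRNA groups against the 8 siRNA groups, log2 fold changes turned to positive for Jak1 (0.12), Calca (0.15), Cry2 (0.22), Stat3 (0.13), Rest (0.34), Scn10a (0.37), Mars (0.27), Sst (0.77) and Sgk1 (0.47). They turned to negative for Srxn1 (-0.22), Ftl1 (-0.078), Jun (-0.19), Vgf (-0.13), Vamp2 (-0.12), Krt19 (-0.54), Hist1h1c (-0.23), Hist1h2bc (-0.12), Ifit1 (-1.04), Usp18 (-0.82), Dhx58 (-0.69), Sprr1a (-0.77), Ecel1 (-0.29), Pmaip1 (-0.52), Ebp (-0.17) and Npy (-1.29). Depth limits the scarce genes: below 20 CPM some intervals were wide, as for Tlr3.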

Other observations

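The gene 1700026F02Rik had 9.85, 6.41, 9.71 and 2.52 CPM with GFP mRNA and 0 counts in all 4 siCONTROL libraries. Against a floor of 3 counts over the siCONTROL group (0.148 CPM) it was at least 48.7-fold higher (edgeR adjusted p = 0.0709, limma-voom 0.0364). Mamdc4, which the filter on low counts removed, had 12.6, 1.56, 11.6 and 10.5 CPM with GFP mRNA and 0 to 0.227 CPM with siCONTROL (edgeR adjusted p = 0.0344 with no filter). On the joint scale both genes varied within other groups: 1700026F02Rik ran from 0 to 11.5 CPM with siAtf4, and Mamdc4 from 0 to 13.8 CPM with Atf4 plus Cebpg mRNA and from 0 to 9.28 CPM with siStat3. Of 10 metallothionein and metal response genes edgeR called 0, with 1 higher at an unadjusted p under 0.05 and 1 called by each of DESeq2, limma-voom and the fit of 44 libraries; Mt1 lay at 597 to 938 CPM with GFP mRNA and 601 to 670 CPM with siCONTROL. The ferritin chains Ftl1 and Fth1 had log2 fold changes of 0.02 (95% interval -0.12 to 0.16) and 0.01 (-0.14 to 0.15). Of 16 AP-1 and immediate early genes edgeR called 0, with 1 higher and 1 lower at an unadjusted p under 0.05 and 1 called lower by the fit of 44 libraries. Jund, an AP-1 subunit, had a log2 fold change of 0.08 (95% interval -0.10 to 0.26). Nr4a1, an activity-induced nuclear receptor, lay at 7.10 to 9.30 CPM with GFP mRNA and 11.9 to 15.5 CPM with siCONTROL (log2 fold change -0.75, edgeR adjusted p = 0.202, fit of 44 libraries 0.0445).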
